A study of Mus musculus with 4 samples.

Results

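Expression of 10 marker genes of inhibitory neurons was followed in the mouse hippocampus: Gad1, Gad2, Slc32a1, Pvalb, Lhx6, Dlx1, Erbb4, Reln, Lamp5 and Kit. They were taken by gene name from the spots of the arrays that are not controls, as genes of GABA synthesis, GABA transport and interneuron identity other than neuropeptides. They are 10 of 37311 genes and hold 26 of the 56605 probes. All 10 were measured on all 4 arrays, as were 27370 genes in all; measured means that the scanner software marks the spot as well above background.

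The study set Rp58 hetero-KO mice, which carry 1 knocked-out copy of the gene (the current symbol is Zbtb18, a zinc finger protein that represses transcription) against wild-type (WT) mice in adulthood and old age. The groups are hetero-KO at 18 months, WT at 18 months, hetero-KO at 4 months and WT at 4 months. The descriptions of both older groups give an age of 12 to 18 months; sex and strain are not stated in the labels. Each group holds 1 one-colour array with RNA from 3 samples pooled before labelling, so no group has a replicate. The p-values and SEs rest on 4 pools. Their only residual is a gene's genotype by age difference, moderated by the spread of the other genes. They do not measure the spread between pools of the same group.

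GABA is the main inhibitory transmitter of the forebrain. It is made from glutamate by a pair of glutamate decarboxylases, loaded into vesicles by a single transporter, and released in the hippocampus by a small population of local neurons. These interneurons differ in origin and in firing, and the classes are told apart by a few proteins, among them parvalbumin in fast-spiking cells and reelin and Lamp5 in neurogliaform and related cells. In RNA from whole tissue, fewer cells of a type and less RNA per cell cannot be told apart.

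The level of a gene is its signal divided by the array's 75th percentile of signal, so 1 is the level of a fairly bright spot, and levels of different genes, read by different probes, are not compared. The 75th percentile was 1714 in hetero-KO and 1734 in WT at 18 months, and 2111 in hetero-KO and 1975 in WT at 4 months. Between 77.9% and 81.9% of spots were well above background. With 4 arrays, it is their number that sets the precision. The probe for Zbtb18 itself read 21.4 in hetero-KO and 18.9 in WT at 18 months, and 15.2 in hetero-KO and 17.5 in WT at 4 months. Its position relative to the deleted part is not known here, so it does not check the genotype labels. Of 10 markers of hippocampal excitatory neurons, all were measured on all arrays. Markers of the striatum (15 of 16) and of the thalamus and habenula (12 of 13) were measured on all arrays as well, and their levels differ between arrays in ways given beside the results.

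The array's 60-base probes decide what each gene's value stands for, so the ones on which the results turn are shown here, 5′ to 3′ in build mm9. The Pvalb, Gad2 and Dlx1 probes each match 1 unbroken stretch of the genome. In the Lhx6 probes the capitals mark a dinucleotide repeat, and in the Erbb4 probes a stretch of 22 bases that both share.
Pvalb, chr15:78021951-78022010, minus strand: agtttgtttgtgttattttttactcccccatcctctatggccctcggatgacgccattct
Gad2, chr2:22549095-22549154, plus strand: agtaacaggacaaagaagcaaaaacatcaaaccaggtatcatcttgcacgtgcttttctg
Dlx1, chr2:71371499-71371558, plus strand: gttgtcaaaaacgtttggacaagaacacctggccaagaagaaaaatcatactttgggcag
Lhx6, bright probe, chr2:35937644-35937703, minus strand: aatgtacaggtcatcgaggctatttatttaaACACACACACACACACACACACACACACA
Lhx6, other probe, chr2:35958379-35958438, minus strand: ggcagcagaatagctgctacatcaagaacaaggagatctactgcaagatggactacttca
Erbb4, bright probe, chr1:68089291-68090519, minus strand: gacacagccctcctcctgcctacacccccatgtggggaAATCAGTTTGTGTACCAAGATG
Erbb4, other probe, chr1:68089289-68118127, minus strand: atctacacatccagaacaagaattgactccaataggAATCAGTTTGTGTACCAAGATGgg

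The Erbb4 probes span 1229 and 28839 bases of the genome, far more than their own 60, so each joins separate stretches. The bright Lhx6 probe ends in 29 bases of repeat. On the array, 80 probes hold a repeat of AC, or of its complement GT, of 20 bases or more. Of these, 80 of 80 were well above background on every array. Of the other probes, 76.9% in hetero-KO and 77.9% in WT at 18 months, and 78.5% in hetero-KO and 81.0% in WT at 4 months, were well above background. The other Lhx6 probe has no repeat and was well above background on the WT array of 4 months alone, at a level of 0.0178. The part of the repeat in the Lhx6 level was not tested. Of the members, 6 lie on chromosome 2, 2 on chromosome 5, 1 on chromosome 1 and 1 on chromosome 15.

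Age was the factor with which a member changed. Pvalb, which encodes the calcium-binding protein parvalbumin of fast-spiking interneurons, fell with age in both genotypes, and it was the 1 member of 10 past the test. The test was limma's moderated test in an additive model of genotype and age over 29076 genes, with Benjamini-Hochberg adjusted p below 0.05. It called 2.12% of all genes for age, 1.47% as higher and 0.65% as lower at 18 months. With quantile normalization the split of all age calls turned round, to 54 higher and 117 lower, against 428 higher and 189 lower here. At an unadjusted p below 0.05, 4 of the 10 members and 23.7% of all genes differed.

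The level of Pvalb was 5.30 in hetero-KO and 5.09 in WT at 18 months, and 7.38 in hetero-KO and 7.04 in WT at 4 months. Both older arrays lie below both younger ones, and within an age the genotypes lie close together. The age difference was -0.48 on the log2 scale in hetero-KO and -0.47 in WT. Over both genotypes Pvalb fell by 0.47 ± 0.04 (SE, 4 arrays) on the log2 scale with age, a fold of 1.39 (limma, adjusted p = 0.0344). In the authors' deposited table, whose 18-month values come from an unknown source, the direction was opposite: Pvalb is listed at 10.4 in hetero-KO and 11.4 in WT at 18 months, and at 7.34 in hetero-KO and 6.996 in WT at 4 months. From that table the age difference was 0.61 (limma, adjusted p = 0.00227). Under the other scaling, filter and model alternatives Pvalb was lower with age, with an adjusted p between 0.0173 (normexp background) and 0.318 (no variance trend). It missed the threshold with a mean over each gene's probes, without the filter on dim probes and without the variance trend.

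The other genes of the fast-spiking phenotype passed in 1 case. Of 13 genes for fast-spiking channels, synaptic proteins and perineuronal nets, 1 fell with age, 0 rose, and the median age difference was -0.03, against 0.04 over all genes. The gene that fell was Kcnc2, a Kv3 potassium channel subunit that lets these cells repolarize fast. Its level was 1.98 in hetero-KO and 1.74 in WT at 18 months, and 2.79 in hetero-KO and 2.57 in WT at 4 months, a difference of -0.53 ± 0.05 (SE, 4 arrays; limma, adjusted p = 0.0386). Cox6a2, a subunit of the respiratory chain, differed by -0.73 with age and did not pass (adjusted p = 0.0991).

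Both Pvalb and Kcnc2 are also made by neurons outside the hippocampus, and markers of neighbouring regions were lower with age as well. Of 12 thalamus and habenula markers measured on all arrays, 11 were lower at 18 months over both genotypes, with a median difference of -1.29. Of the 13 tested, 9 fell past the test, among them Tnnt1 (-2.81, adjusted p = 0.00904), Tcf7l2 (-2.12, adjusted p = 0.0210) and the transcription factor Shox2 (-4.54, adjusted p = 0.0307). The summed level of the 13 listed genes was 19.99 in hetero-KO and 21.9 in WT at 18 months, and 39.9 in hetero-KO and 52.0 in WT at 4 months. Gbx2 was not well above background on either older array. Of 6 septal cholinergic markers 5 were lower, with a median of -0.39, and 2 fell past the test, Slc5a7 (-2.42, adjusted p = 0.0241) and Slc18a3 (-1.58, adjusted p = 0.0333). Of 15 striatum markers 15 were lower, with a median of -0.89, and 0 passed. The part of these shifts in the Pvalb difference was not tested.

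**Figure D1:**
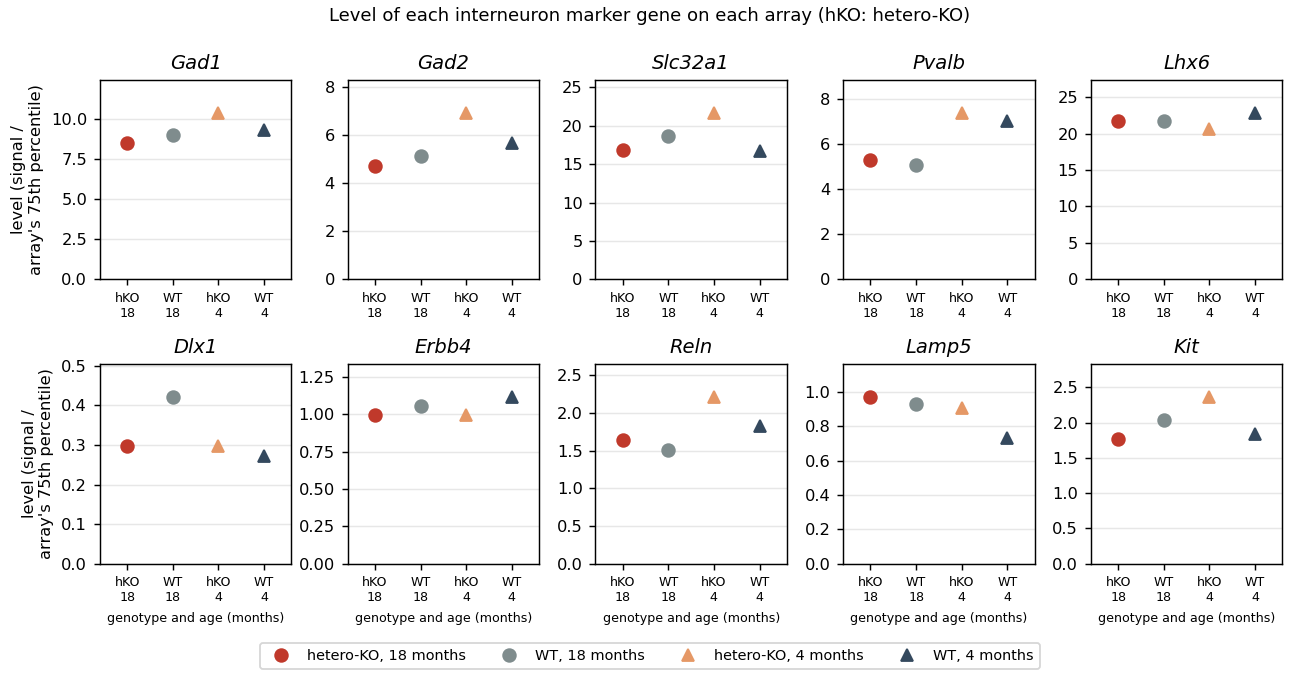
Level of each of the 10 genes on each of the 4 arrays, as signal divided by the array's 75th percentile (vertical axes start at 0 and differ between panels); 1 point is 1 pooled array. For Pvalb the 18-month arrays (5.30 and 5.09) lie below the 4-month arrays (7.38 and 7.04), and for Dlx1 the WT array of 18 months (0.420) lies above the other three.

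Reln encodes reelin, a secreted glycoprotein that guides layering in development and is made in the adult by interneurons and by Cajal-Retzius cells. Its level was 1.65 in hetero-KO and 1.51 in WT at 18 months, and 2.21 in hetero-KO and 1.82 in WT at 4 months. Both older arrays lie below both younger ones, and at each age hetero-KO is the higher. The age difference was -0.34 ± 0.06 (SE, 4 arrays) and missed the threshold (limma, adjusted p = 0.0642). With normexp background correction it passed (adjusted p = 0.0481), and in the authors' deposited table it had the opposite sign (0.40, adjusted p = 0.0105). Under the alternatives in which Reln was lower with age, the adjusted p ran from 0.0481 to 0.318. Of 5 Reln probes measured on all arrays, 5 were lower with age in hetero-KO and 4 in WT.

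Reelin acts through lipoprotein receptors and kinases inside the receiving cell. Of 8 such genes, 0 passed the test for age or genotype, and their median difference was 0.02 for age and -0.06 for genotype. The receptor gene Vldlr differed by 0.14 with age (adjusted p = 0.148). Dab1, the adaptor protein of these receptors, differed by -0.15 with genotype (adjusted p = 0.435). Of 7 markers of Cajal-Retzius cells measured on all arrays, 6 were lower at 18 months in hetero-KO, with a median of -1.02. In WT 4 of the 7 were lower, with a median of -0.02 and a range of -1.11 to 1.43. Over both genotypes 1 of the 8 tested fell past the test, Nhlh2 (-1.06, limma, adjusted p = 0.044). The summed level of the 8 markers was 2.47 in hetero-KO and 4.15 in WT at 18 months, and 4.49 in hetero-KO and 3.81 in WT at 4 months. The part of these markers in the Reln difference was not tested.

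Lamp5, a lysosome-associated membrane protein that marks neurogliaform cells, went the other way. Its level was 0.970 in hetero-KO and 0.932 in WT at 18 months, and 0.910 in hetero-KO and 0.731 in WT at 4 months. The WT array of 4 months is the low one, and the other three differ from each other by less than the error of single spots. The age difference was 0.22 ± 0.08 (SE, 4 arrays; limma, adjusted p = 0.204). A dimmer Lamp5 probe disagreed in sign in WT (-0.32, against 0.35 for the bright one). In the authors' deposited table Lamp5 is listed at 5.10 in hetero-KO and 5.41 in WT at 18 months, and at 0.905 in hetero-KO and 0.727 in WT at 4 months, a log2 difference of 2.50 in hetero-KO and 2.89 in WT.

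Between genotypes no member passed the test over both ages. The model called 0.0103% of all genes for genotype, 3 of 29076, and 0 of the 10 members. At an unadjusted p below 0.05, 1 member (Reln) and 11.5% of all genes differed. The members' genotype differences ran from -0.19 for Dlx1 to 0.20 for Reln, with a median of 0.07, against -0.01 for all genes. Reln was higher in hetero-KO by 0.20 ± 0.06 (SE, 4 arrays; limma, adjusted p = 0.387), and Lamp5 by 0.19 ± 0.08 (adjusted p = 0.471). Erbb4, the receptor tyrosine kinase for neuregulins on many interneurons, differed by -0.13 ± 0.06 (adjusted p = 0.475).

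Single ages were compared array against array, with no test, since each group has 1 array. For these pairs the scanner software's error of single spots gives 0.204 on the log2 scale for a difference. It was the same for the bright probes of all 10 members, and it was not measured from repeated spots. Spots repeated within an array had a median SD of 0.0315 to 0.0342. The spot error does not cover the spread between mice. A fold of 1.5 was taken as apart. At 18 months 0 of 10 members and 4.75% of all genes were at least 1.5-fold apart between hetero-KO and WT, and at 4 months 0 of 10 members and 4.51% of all genes. At 18 months 3 members were higher and 7 lower in hetero-KO, with a median of -0.09, against 47.9% of all genes higher. At 4 months 8 were higher and 2 lower, with a median of 0.22, against 44.4% of all genes higher and a median over all genes of -0.02. Past the spot error lay 2 members at 18 months, Dlx1 and Kit, both lower in hetero-KO, against 23.8% of all genes past their own spot error and 13.5% lower by more than it. At 4 months 5 members lay past it, Gad2, Slc32a1, Reln, Lamp5 and Kit, all higher in hetero-KO, against 25% of all genes past it and 8.79% higher by more than it. For Lamp5 the second probe read -0.41 there, past its error in the other direction. The genotype difference had opposite signs at the 2 ages in 5 of 10 members and in 38.1% of all genes.

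**Figure D2:**
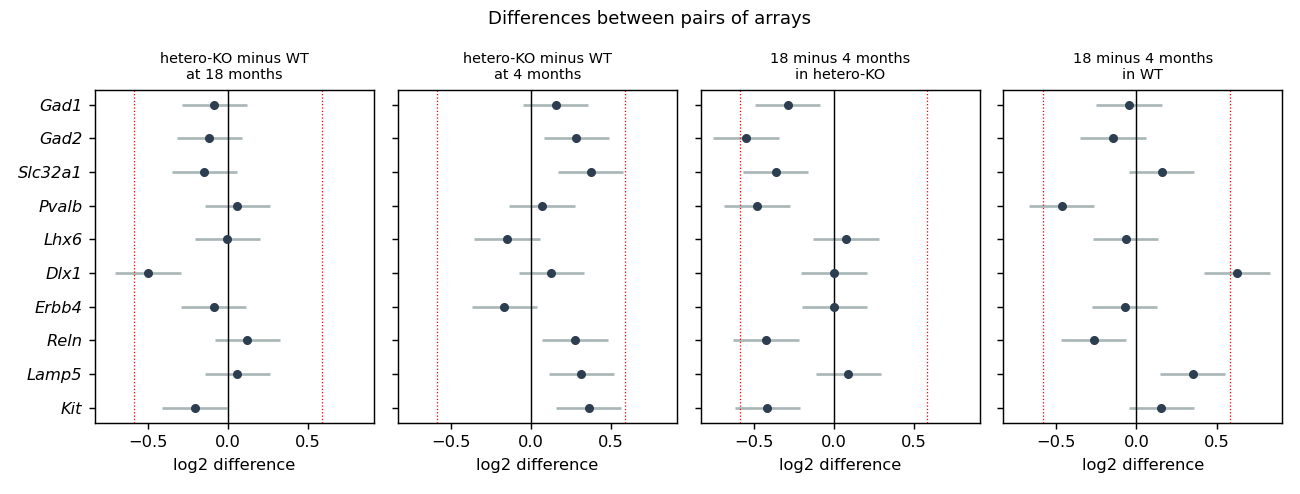
Log2 difference of each member between pairs of arrays, hetero-KO minus WT at each age and 18 minus 4 months in each genotype. Points are single differences, horizontal bars the error of 2 single spots (0.204), and red dotted lines a fold of 1.5; Dlx1 in WT is the 1 point outside them.

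The genes of GABA synthesis and vesicle loading had their highest level on the hetero-KO array of 4 months. Gad1, one of the glutamate decarboxylases, read 8.50 in hetero-KO and 9.02 in WT at 18 months, and 10.4 in hetero-KO and 9.32 in WT at 4 months. Gad2, the other decarboxylase, read 4.74 in hetero-KO and 5.14 in WT at 18 months, and 6.93 in hetero-KO and 5.69 in WT at 4 months. Slc32a1, the vesicular GABA transporter, read 16.8 in hetero-KO and 18.7 in WT at 18 months, and 21.7 in hetero-KO and 16.7 in WT at 4 months. Each of these genes was lower in hetero-KO than in WT at 18 months, by less than the spot error, and higher at 4 months, for Gad2 (0.28) and Slc32a1 (0.37) by more than it. With age in hetero-KO the differences were -0.29 for Gad1, -0.55 for Gad2 and -0.36 for Slc32a1.

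None of these genes passed the test for either factor. Genotype differences of opposite sign at 18 and 4 months count as error in that test. The adjusted p was 0.857 for Gad1, 0.755 for Gad2 and 0.734 for Slc32a1 for genotype (limma), and 0.236 for Gad1, 0.138 for Gad2 and 0.678 for Slc32a1 for age. The 3 Gad2 probes all read higher in hetero-KO at 4 months, by 0.28 to 0.90, and all lower at 18 months, there within the spot error. The difference of 0.90 came from the dimmest Gad2 probe, at 0.0517 in hetero-KO and 0.0278 in WT. Of the 4 Gad1 probes, 3 were higher at 4 months and 3 lower at 18 months. The exception at both ages was the dimmest probe, with -0.57 at 4 months and 0.31 at 18 months. In the authors' deposited table Slc32a1 and Gad1 were not lower with age in hetero-KO (0.09 for Slc32a1 and 0.08 for Gad1), and Gad2 was (-0.28). There Gad1 (11.6) and Slc32a1 (23.2) were highest in WT at 18 months, and Gad2 (6.89) in hetero-KO at 4 months.

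Kit, the receptor tyrosine kinase for stem cell factor and present on some hippocampal interneurons, was also highest on the hetero-KO array of 4 months and lowest on that of 18 months. Its level was 1.77 in hetero-KO and 2.05 in WT at 18 months, and 2.36 in hetero-KO and 1.84 in WT at 4 months. The genotype difference was -0.21 at 18 months and 0.36 at 4 months, each past the spot error, the first only just. At 18 months it was -0.20 with quantile normalization and -0.0099 in the authors' deposited table, both within the spot error. All 3 Kit probes read lower in hetero-KO at 18 months (-0.38 to -0.21) and higher at 4 months (0.27 to 0.64), in the same pools. Those other than the brightest, at levels of 0.055 to 0.163, lie side by side on the genome and target GenBank cDNAs. Over both ages the genotype difference of Kit was 0.08 ± 0.14 (SE, 4 arrays), with a limma adjusted p = 0.842. Its ligand Kitl fell with age, by 1.33 ± 0.08 on the log2 scale (adjusted p = 0.0210). Kitl read 0.236 in hetero-KO and 0.305 in WT at 18 months, and 0.631 in hetero-KO and 0.719 in WT at 4 months. Mast cells also make Kit. Of 7 mast cell markers, Tpsb2, Cma1 and Hdc were well above background on all 4 arrays, Tpsab1 on none and the others on some. The summed level of the 7 was 0.765 in hetero-KO and 0.943 in WT at 18 months, and 0.648 in hetero-KO and 0.818 in WT at 4 months. Most of it was Hdc, at 0.485 in hetero-KO and 0.675 in WT at 18 months, and 0.385 in hetero-KO and 0.574 in WT at 4 months. Of the 3 measured on all arrays, 3 were lower in hetero-KO at 18 months, and 2 were higher and 1 lower at 4 months. Ms4a2 read 0.0440 in hetero-KO at 18 months, at least 5.78-fold above WT, where it was not well above background. The part of mast cells in the Kit level was not tested.

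**Figure D3:**
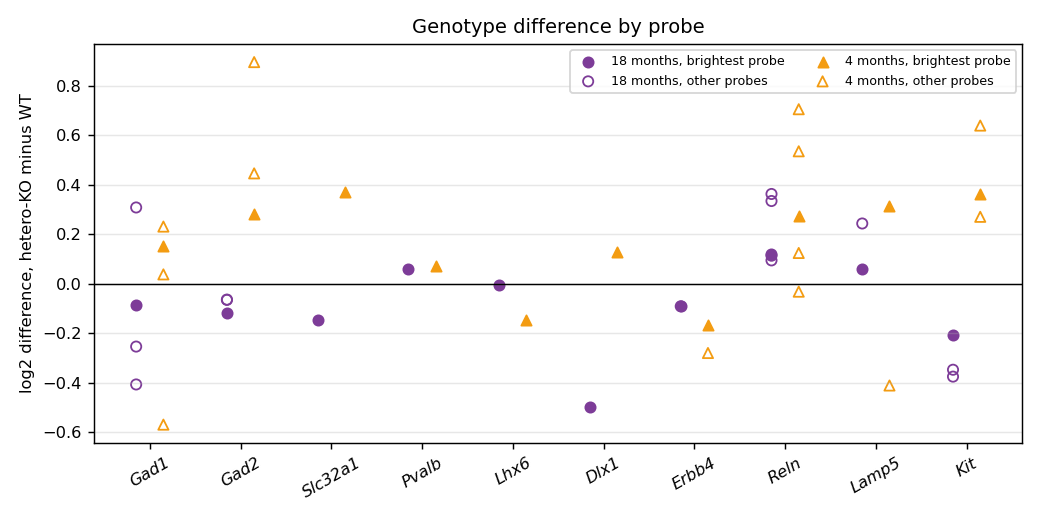
Log2 difference between hetero-KO and WT for every member probe measured on all 4 arrays, at 18 months (circles) and 4 months (triangles). Filled points are each gene's brightest probe and open points its others; the 3 Gad2 and 3 Kit probes lie above 0 at 4 months and below 0 at 18 months.

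Markers of the striatum, a region built mostly of GABA neurons that also make Gad1, Gad2 and Slc32a1, were high on the same array. All 15 striatum markers measured on all arrays were higher in hetero-KO than in WT at 4 months, with a median of 0.86. At 18 months 5 were higher and 10 lower, with a median of -0.12. With age in hetero-KO 15 of 15 were lower, with a median of -1.24. The summed level of the 16 listed genes was 19.7 in hetero-KO and 20.3 in WT at 18 months, and 38.7 in hetero-KO and 21.7 in WT at 4 months. The hetero-KO array of 4 months stands apart, and the other three have sums close to each other. Adora2a, a receptor of striatal projection neurons, read 0.107 in hetero-KO and 0.0585 in WT at 18 months, and 0.378 in hetero-KO and 0.0785 in WT at 4 months. It was highest on the hetero-KO array of 4 months. Isl1, a striatal transcription factor, was not well above background on 1 array, hetero-KO at 18 months. Tac1, listed among interneuron subclass markers and also made by striatal neurons, read 1.16 in hetero-KO and 1.07 in WT at 18 months, and 4.07 in hetero-KO and 1.40 in WT at 4 months. The part of these markers in the levels of Gad1, Gad2, Slc32a1 and Kit was not tested.

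The mean pattern of Gad1, Gad2 and Slc32a1 over the 4 arrays was set against 19178 genes that have an official symbol and were measured on each array. The nearest were Traf3ip1, at a distance of 0.023 on the log2 scale, Ndst3 at 0.028 and Gm6598 at 0.040. Over the arrays the mean pattern spans 0.40, under the factor of 2 that 4.43% of all genes reach. No single member spans a factor of 2.

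**Figure D4:**
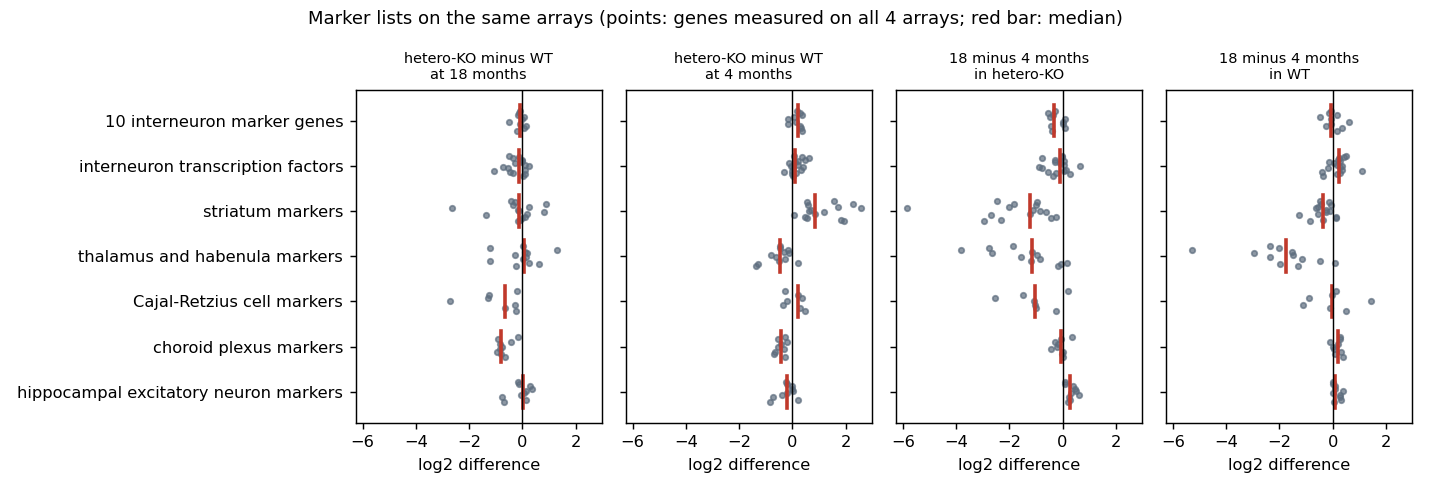
Log2 differences between pairs of arrays for the members and 6 marker lists. Points are genes measured on all 4 arrays and red bars the medians; the striatum median is 0.86 for hetero-KO minus WT at 4 months and -1.24 for 18 minus 4 months in hetero-KO, and the members' medians are 0.22 and -0.33.

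Dlx1 and Lhx6 are homeobox transcription factors that specify interneurons born in the ganglionic eminences and stay on in many of them. Dlx1 read 0.298 in hetero-KO and 0.420 in WT at 18 months, and 0.297 in hetero-KO and 0.272 in WT at 4 months. The WT array of 18 months is the high one, and the other three lie within the spot error of each other. Between ages in WT the difference was 0.63, a fold of 1.55, and Dlx1 was the 1 member of 10 at least 1.5-fold apart there, against 5.27% of all genes. In hetero-KO 0 members were 1.5-fold apart between ages, against 6.73% of all genes. In each genotype 4 members were higher and 6 lower at 18 months, against 59.4% of all genes higher in hetero-KO and 58.4% in WT, and in 4 members and 30.9% of all genes the 2 genotypes had opposite signs. Over both genotypes the age difference of Dlx1 was 0.31 ± 0.16 (SE, 4 arrays; limma, adjusted p = 0.319). In WT it was 0.57 with normexp background and 0.51 with the mean of its probes, both under a fold of 1.5, and the second Dlx1 probe was not well above background on any array.

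The other genes of the Dlx family did not all share this order, and they are given with the genes of the lists that differed most; the Dlx genes were chosen after their values were seen. Dlx2, the neighbour of Dlx1, read 0.276 in hetero-KO and 0.386 in WT at 18 months, and 0.281 in hetero-KO and 0.270 in WT at 4 months. Dlx5 read 0.0949 in hetero-KO and 0.102 in WT at 18 months, and 0.0968 in hetero-KO and 0.0754 in WT at 4 months. Dlx6 read 0.0302 in hetero-KO and 0.0386 in WT at 18 months, and 0.0509 in hetero-KO and 0.0330 in WT at 4 months. Like the antisense transcript Dlx6os1 (1.68 on that array), Dlx6 was highest in hetero-KO at 4 months. Sp8, a zinc finger factor of interneurons from the caudal ganglionic eminence, read 0.147 in hetero-KO and 0.309 in WT at 18 months, and 0.142 in hetero-KO and 0.143 in WT at 4 months. For Sp8, as for Dlx2, the WT array of 18 months is the high one and the other three lie close together. Ebf3, listed for Cajal-Retzius cells, read 0.0811 in hetero-KO and 0.530 in WT at 18 months, and 0.171 in hetero-KO and 0.197 in WT at 4 months. Calb2, a calcium-binding protein of some interneurons and also of Cajal-Retzius and thalamic cells, read 0.0381 in hetero-KO and 0.197 in WT at 18 months, and 0.131 in hetero-KO and 0.153 in WT at 4 months; its low array is hetero-KO at 18 months. The part of other cells' RNA in the Dlx1 value was not tested. In the authors' deposited table Dlx1 was equal between genotypes at 18 months, at 0.409 in hetero-KO and 0.410 in WT.

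Lhx6 read 21.7 in hetero-KO and 21.8 in WT at 18 months, and 20.6 in hetero-KO and 22.8 in WT at 4 months, through the probe with the repeat. No pair of arrays of one age or one genotype differed by more than the spot error. The age difference was 0.00 ± 0.05 and the genotype difference -0.08 ± 0.05 (SE, 4 arrays; limma, adjusted p = 0.969 and 0.573). Of 17 other interneuron transcription factors, all measured on all arrays, 0 changed with genotype, 0 rose with age and 1 fell. That was Tox2, an HMG-box factor, at 3.04 in hetero-KO and 2.99 in WT at 18 months, and 3.92 in hetero-KO and 3.84 in WT at 4 months. Its age difference was -0.36 ± 0.04 (adjusted p = 0.0470). At 4 months 13 of the 17 were higher in hetero-KO, with a median of 0.09, and at 18 months 12 were lower, with a median of -0.11. Sp9 differed by -0.39 with genotype (adjusted p = 0.396). Of 15 interneuron subclass markers, all measured on all arrays, 0 passed for genotype or age. Over both ages 9 were higher and 6 lower in hetero-KO, with a median of 0.12. Over both genotypes 7 were higher and 8 lower at 18 months, with a median of -0.02. At an unadjusted limma p below 0.05, 4 were higher and 1 lower for each factor. The shares of all genes were 5.16% higher and 6.31% lower for genotype, and 16.8% and 6.92% for age.

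On the log2 scale the 4 levels of Erbb4 spanned the smallest range next to those of Lhx6. It read 0.995 in hetero-KO and 1.06 in WT at 18 months, and 0.993 in hetero-KO and 1.11 in WT at 4 months. Hetero-KO was the lower at both ages on both probes, each time by less than the probe's own spot error. The dimmer probe, at 0.0102 to 0.0124, lies near the lowest levels marked well above background on the arrays (0.0058 to 0.0083). On the bright probe age made a difference of -0.03 ± 0.06 for Erbb4 (limma, adjusted p = 0.763). Of its ligands and related receptors, 8 of 10 were measured on all arrays and 0 passed for either factor. Nrg1, a neuregulin that binds Erbb4, differed by -0.74 ± 0.14 with age and did not pass (adjusted p = 0.0701). Erbb2 differed by -0.22 with genotype (adjusted p = 0.564).

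Genes that act after GABA release were listed in 3 groups, and 1 gene of them was called. Of 19 GABA receptor subunits, 16 were measured on all arrays and 0 of 17 tested passed for genotype or age, with a median age difference of -0.07. Gabrd, the delta subunit of extrasynaptic receptors on granule cells, differed by -0.41 with age (adjusted p = 0.0513), and Gabra5 by 0.29 (adjusted p = 0.0656). Gabra6, a subunit of cerebellar granule cells, was not well above background on any array. Of 6 genes of the inhibitory postsynapse, 0 passed; the largest age difference was 0.28 for Iqsec3 (adjusted p = 0.0541). Of 10 genes for GABA uptake, breakdown and chloride transport, 1 fell with age and 0 rose. It was Slc6a11, a GABA transporter of astrocytes that is abundant in the thalamus, at 0.524 in hetero-KO and 0.488 in WT at 18 months, and 0.898 in hetero-KO and 0.894 in WT at 4 months (-0.83 ± 0.06, adjusted p = 0.0307). Slc6a13, a GABA transporter of the meninges and vessels, read 1.26 in hetero-KO and 0.575 in WT at 18 months, and 0.829 in hetero-KO and 1.03 in WT at 4 months.

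Rp58 binds an E-box of the form ACATCTG and represses from it, which was searched on both strands (reverse CAGATGT, which also holds the general E-box CANNTG) in RefSeq promoter windows of build GRCm38.p6, 250 bases before to 50 after each gene's start. All 10 members matched, with 15 windows. The letters were found in 1 of 10 members, against 5.10% of all 27025 genes, and in 1 of 15 windows, against 4.43% of all windows. The member was Lamp5, at its second listed start, where the motif begins 5 bases before the start; the 60 bases that end with it are shown with the motif in capitals. The match describes these letters only.
Lamp5, GRCm38.p6 chr2:136057690-136057749, plus strand: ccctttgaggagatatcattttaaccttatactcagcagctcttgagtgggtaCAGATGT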

How the data were processed

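Hippocampal total RNA was measured on 4 one-colour Agilent arrays, 1 per group, each with 3 RNA samples mixed and 200 ng labelled, per the labels' protocols. The deposited scanner files hold linear spot intensity; version 11.5.1.1 of Agilent Feature Extraction, per the file headers, subtracted background and replaced dim spots by surrogate values, on 1 slide, in build mm9. The authors' deposited table holds a linear ratio of signal to the array's 75th percentile. Its 4-month columns correlate with their own scanner files at r = 1 on the log2 scale, and its 18-month columns with any scanner file at most at 0.985, so the source of the 18-month columns is unknown. The table is not centred per gene, and its column medians were 0.0987 for hetero-KO and 0.0998 for WT at 18 months, and 0.103 for hetero-KO and 0.107 for WT at 4 months. It served as an alternative only.

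The log2 of the processed signal minus each array's 75th percentile was used, without control spots and outlier spots. Replicate spots were averaged per probe. A probe counted as measured where 50% or more of them were well above background, and the probe of the highest mean level stood for the gene. RefSeq accessions gave current symbols for 32994 probes, of which 1535 changed.

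Limma 3.58.1 in R 4.3.3 fitted genotype and age to all genes measured on 2 or more arrays, with a variance trend, 1 residual and 3.66 prior degrees of freedom, and Benjamini-Hochberg adjustment over all 29076 genes. It leaves no degree of freedom for a genotype by age term, and that difference goes into the error. Spot replicates within an array differed by a median SD of 0.0315 to 0.0342 on the log2 scale over 300 probes. All arrays share 1 slide, so slide is no batch.

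The text names all 10 members. From each marker list it names the 2 genes with the largest differences for each factor and those past the threshold, as far as they bear on a member. Some genes that this rule takes are not reported here. The members and lists were chosen with earlier results of these data known. Alternatives were normexp background, quantile normalization, the mean of a gene's probes, the authors' table, other filters, no variance trend, no other factor and a fold of 2. One further alternative, without Lhx6, was chosen after seeing the data. Sequences of promoters and current symbols are RefSeq's (GRCm38.p6).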

Additional observations from a re-analysis of the deposited data

Results flagged for a closer look

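Of the 10 members, 5 differed between genotypes in opposite directions at the 2 ages, and none of these contrasts could be tested, since no group has a replicate. Hetero-KO minus WT on the log2 scale was -0.086 at 18 months and 0.15 at 4 months for Gad1, and -0.12 at 18 months and 0.28 at 4 months for Gad2. It was -0.15 at 18 months and 0.37 at 4 months for Slc32a1, -0.50 at 18 months and 0.13 at 4 months for Dlx1, and -0.21 at 18 months and 0.36 at 4 months for Kit. Kit was the 1 member past the spot error of 0.204 at both ages, at 18 months only just; there it was -0.20 with quantile normalization and -0.0099 in the authors' deposited table. The genotype difference had opposite signs in 5 of 10 members and in 38.1% of all genes. The genotype difference at 18 months minus that at 4 months had a median of -0.25 over the members, with 8 of 10 below 0, against a median of 0.01 over all genes, of which 13203 of 27370 were below 0. For a single gene the error of the 4 spots behind such a difference is 0.289. Of the members, Gad2 (-0.40), Slc32a1 (-0.52), Dlx1 (-0.63) and Kit (-0.57) lay past it, and the others lay within it. With a mean over each gene's probes the members' median was -0.06.

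Between ages, 4 of 10 members had opposite signs in the 2 genotypes, against 30.9% of all genes, and this was not tested either. At 18 minus 4 months, Slc32a1 differed by -0.36 in hetero-KO and 0.16 in WT, and Kit by -0.41 in hetero-KO and 0.16 in WT. Lhx6 differed by 0.076 in hetero-KO and -0.067 in WT, and Erbb4 by 0.0038 in hetero-KO and -0.073 in WT, all within the spot error. These pairs share arrays, so the signs of the 2 sets of differences are not independent.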

How the results depend on the processing

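For genotype, 0 members passed under every alternative run, including without Lhx6. For age, 1 member passed (Pvalb), and likewise with quantile normalization, with genes measured on all 4 arrays, without genotype in the model and without Lhx6. It was 2 with normexp background (Pvalb and Reln), 0 with a mean over each gene's probes, 0 with no filter, 0 with no variance trend and 7 with the authors' table. In that table the age difference of Pvalb was 0.61 and that of Reln 0.40, both opposite in sign to the scanner files (limma, adjusted p = 0.00227 and 0.0105), and that of Lhx6 was -0.22 (adjusted p = 0.00606), against 0.00 ± 0.05 here and -0.16 with quantile normalization. The source of its 18-month columns was not tested. All genes called for age numbered 617 here, 1451 with normexp, 171 with quantile, 14 with the mean of probes, 9916 with the table, 884 on all 4 arrays, 130 without genotype and 0 with no filter or no trend; for genotype they numbered 3, against 0 to 14. Members 1.5-fold apart with age in hetero-KO were 0 here, 1 with quantile (Gad2), 2 with the mean of probes and 2 with the table. In WT they were 1 here (Dlx1), 0 with normexp, 3 with the table and 0 at a fold of 2; with the mean of probes the 1 member was Lhx6 (-1.80), and Dlx1 was at 0.51, under a fold of 1.5. Between genotypes at 4 months 1 was apart with the mean of probes, Lhx6, whose second probe is dim. Of 40 differences of members between pairs of arrays, the sign turned in 2 with normexp, 4 with quantile, 3 with the mean of probes and 13 with the table. Against the scaling used here, the median of all genes moved by less than 0.1 under each alternative; between ages in WT it was 0.08 with normexp and -0.06 with the table. No paired analysis was possible because each group holds 1 array. With 1 array per group, single ages have no replicate check.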
